A study of Mus musculus with 5 samples.

Results

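The angiopoietins and angiopoietin-like proteins are 8 secreted-protein genes that were followed here in cultured mouse lung fibroblasts: Angptl7, Angptl1, Angptl2, Angptl4, Angptl6, Angpt1, Angpt2 and Angpt4. They were taken by gene name, and all 8 matched an identifier among the 55335 in the deposited count table. The family was selected on the measured counts of Angptl7, which was almost lost in the comparison described here, so the values of the 8 genes in that comparison are a description and carry no p-values. PolyA RNA was sequenced from primary fibroblasts of the lung that had received 5 ng/mL of TGF-β1 over 24 h, in 3 libraries, and from such cells that had received vehicle, called control, in 2 libraries. TGF-β1 is a cytokine that drives fibroblasts to make matrix. The replicates are described as independent and biological. The sources used here do not give the strain, sex and age of the mice, the passage number, or whether a library stands for an animal or a dish, so errors and p-values speak only of the spread among the libraries.

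Angiopoietins are ligands of the receptor tyrosine kinase encoded by Tek, which sits mainly on endothelial cells. Angpt1, made by cells around vessels, activates the receptor and keeps vessels quiet, and Angpt2, made mainly by endothelium, can block it. The angiopoietin-like proteins share the coiled-coil and fibrinogen-like domains of this family but do not bind that receptor. Angptl4 inhibits lipoprotein lipase, Angptl2 signals through integrins and immune receptors, and Angptl7 is best known from the human eye, where the cornea and the trabecular meshwork make it. In human trabecular meshwork cells ANGPTL7 is known as a gene that TGF-β raises.

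Library totals were 39769301 to 43163967 counts with TGF-β1 and 34283288 to 40245128 in controls. Levels are CPM, counts scaled to library size with TMM factors, and a log2 fold change is the edgeR estimate for TGF-β1 relative to control, with its standard error (SE). Of the 16380 genes tested, 44.5% passed an adjusted p of 0.05 in either direction (21.3% higher and 23.2% lower). With library totals in place of TMM scaling, 32.1% of the calls were higher, against 47.9% with TMM. All 8 family genes passed the filter on low counts, Angptl1 only through the control libraries and Angpt1 only through the TGF-β1 libraries. Of the 8 genes, 6 passed that threshold, 3 upward and 3 downward. The libraries of the groups did not overlap for 6 of the 8, against 64.6% of all genes tested. Since Angptl7 led to the choice of the family, nothing is read from these counts.

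Most defining markers of fibroblasts were abundant. Col1a1, Col1a2, Col3a1, Vim and Fn1 averaged 1834 CPM or more in each group, whereas Lum was under 1 CPM in each. Of 10 such markers, 5 were higher with TGF-β1 (Col1a1, Col1a2, Pdgfrb, Vim and Fn1) and 5 lower (Col3a1, Pdgfra, Thy1, Dcn and Lum). Col1a2 and Fn1 differed little (log2 fold changes 0.13 and 0.05). With library totals in place of TMM, 3 of the markers were higher and 6 lower. Pdgfra averaged 43.6 CPM with TGF-β1 and 177 CPM in controls, and Dcn averaged 37.7 and 141 CPM. Of 8 epithelial markers, 7 were under 1 CPM. Of 12 endothelial markers, 8 were under 1 CPM, Pecam1 and Cdh5 among them. Their summed level was 76.1 to 80.4 CPM with TGF-β1 and 68.4 to 70.8 CPM in controls, most of it Eng and Esam. Pericyte and smooth muscle markers were at a summed 1533 to 1579 CPM with TGF-β1 and 1968 to 2031 CPM in controls. Des and Myh11 made up most of this. Of 10 such markers, 4 were under 1 CPM, and of 8 tested 2 were higher and 4 lower with TGF-β1. The higher ones were Cspg4 (log2 fold change 3.47) and Mcam (log2 fold change 0.20). Cspg4 averaged 48.0 CPM with TGF-β1 and 4.31 CPM in controls. The lower ones were Des, Myh11, Notch3 and the scarce Kcnj8. Macrophage and leukocyte markers were present, at a summed 1559 to 1593 CPM with TGF-β1 and 2527 to 2606 CPM in controls. Most of this was Lyz2, at a mean of 1137 CPM with TGF-β1 and 1994.5 CPM in controls. Of 8 such markers, 6 were lower with TGF-β1, from a log2 fold change of −0.20 for Csf1r to −1.78 for Cd14. Ptprc was higher (log2 fold change 0.29, adjusted p = 0.00398 by edgeR) and C1qa did not pass (adjusted p = 0.605 by edgeR).

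Angptl7, which encodes a secreted glycoprotein of the matrix (ENSMUSG00000028989, chromosome 4, 148495183 to 148500460 of GRCm38, minus strand), was nearly absent with TGF-β1. It had 81, 79 and 105 counts in the TGF-β1 libraries, against 33235 and 34915 counts in the controls. These are 2.01, 1.88 and 2.71 CPM with TGF-β1 and 934 and 830.2 CPM in controls. Every TGF-β1 library lay far below both controls, and the spread within each group was small beside that gap. The log2 fold change was −8.65 (SE 0.0934), a level 402-fold lower, and by this measure Angptl7 stood first among the genes that were lower. Per kilobase of exon, Angptl7 held rank 10553 of 13703 tested protein-coding genes with TGF-β1 and rank 65 in controls. In a control library, 0.0969% or 0.0868% of all counts came from this gene, against 0.000183% to 0.000264% with TGF-β1.

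Markers of mesothelium, the cell layer over the lung surface, were lower in the same libraries. Of 12 such markers, 11 were lower with TGF-β1 and Krt8 did not pass. The falls were uneven, from a log2 fold change of −0.18 for Krt18 to −5.02 for Muc16, with Wt1 at −1.31. The summed level of the 12 was 254 to 269 CPM with TGF-β1 and 1498 to 1590.0 CPM in controls. Upk1b and Upk3b, at means of 492 and 405 CPM in controls, made up most of the control sum. The part of mesothelial content in the Angptl7 result was not tested. In bulk RNA, fewer cells of a type and less RNA per cell cannot be told apart.

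Promoter sequence of 5 of the 8 genes could be taken from RefSeq (GRCm38.p6), and the 250 bases before the start of the gene that was lost and of Angptl2, a gene that was higher, are shown for comparison, 5′ to 3′ on the gene's strand. Capitals mark the SMAD core motif CAGAC or its reverse complement GTCTG. SMAD proteins are the transcription factors that TGF-β receptors activate.
Angptl7: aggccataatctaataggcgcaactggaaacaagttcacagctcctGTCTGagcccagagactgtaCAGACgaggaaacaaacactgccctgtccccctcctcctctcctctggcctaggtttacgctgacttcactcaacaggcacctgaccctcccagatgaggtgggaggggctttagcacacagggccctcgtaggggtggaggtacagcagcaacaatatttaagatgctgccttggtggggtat
Angptl2: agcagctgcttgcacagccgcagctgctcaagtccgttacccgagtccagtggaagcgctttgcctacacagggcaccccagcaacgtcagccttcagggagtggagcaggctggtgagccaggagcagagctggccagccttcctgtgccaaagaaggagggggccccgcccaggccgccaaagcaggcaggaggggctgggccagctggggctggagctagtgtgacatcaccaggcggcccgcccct
The Angptl7 stretch is chr4:148500463-148500712 (minus strand) and holds the motif at 2 places. The Angptl2 stretch is chr2:33215711-33215960 (plus strand), before a RefSeq start that lies upstream of the GENCODE one, and holds none. The motif, on either strand, was in 2 of the 5 promoters, the other being that of Angptl1, whose stretch lies downstream of the GENCODE start of the gene and wholly within its annotated exons, and in 42.2% of 32851 promoters of the same length. The AP-1 motif TGANTCA, searched on both strands, was in 0 of the 5 and in 6.75% of all promoters. The TEAD motif GGAATG or CATTCC was in 0 of the 5 and in 12.6% of all promoters. These matches describe letters and not binding.

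**Figure D1:**
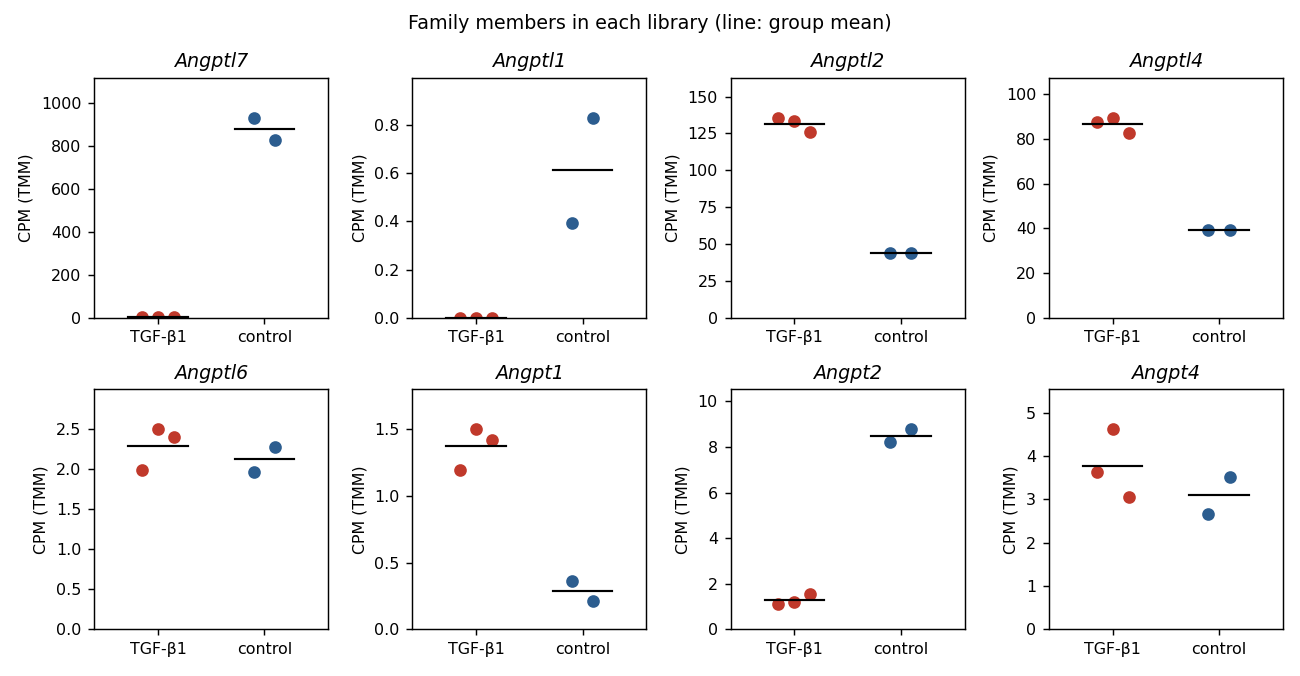
Level of each family gene in CPM after TMM scaling (linear axes from 0, 1 panel per gene), with a point per library for TGF-β1 (red, left, n = 3) and control (blue, right, n = 2) and a line at each group mean. Angptl7 averages 2.20 CPM with TGF-β1 and 882 CPM in controls, while the points of the groups overlap for Angptl6 and Angpt4.

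Angptl1, described as an inhibitor of vessel growth (ENSMUSG00000033544, chromosome 1, 156838562 to 156861078, plus strand), was undetected with TGF-β1 and scarce in controls. It had 0 counts in all 3 TGF-β1 libraries, against 14 and 35 counts, or 0.393 and 0.832 CPM, in controls. Against a floor of 3 counts over the whole TGF-β1 group, the level was at least 24.7-fold lower. The controls themselves differed, and without control 2 the bound was 15.8-fold. Leaving out a TGF-β1 library, which raises the floor, gave 16.1-fold to 16.8-fold.

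Angptl2 and Angptl4 were the family genes with a substantial level under TGF-β1, and both were higher there. Angptl2, a secreted protein linked to inflammation and to tissue remodelling (ENSMUSG00000004105, chromosome 2, 33216069 to 33247717, plus strand), had 136, 133 and 126 CPM with TGF-β1, against 44.0 and 43.7 CPM in controls. The controls were almost equal, and each TGF-β1 library was well above them (log2 fold change 1.59, SE 0.0484, 3.00-fold). Angptl4, the inhibitor of lipoprotein lipase (ENSMUSG00000002289, chromosome 17, 33773750 to 33781830, minus strand), had 87.4, 89.6 and 82.6 CPM with TGF-β1, against 39.1 CPM in each of the controls. It was 2.21-fold higher (log2 fold change 1.15, SE 0.0522). Per kilobase, Angptl4 stood at 24.7, 25.3 and 23.3 CPM per kb with TGF-β1 and 11.05 CPM per kb in both controls. Angptl2 stood just below it, at 20.9 ± 0.803 CPM per kb with TGF-β1 (SD, n = 3) and 6.98 ± 0.0317 CPM per kb in controls (SD, n = 2). The order of these genes depends on the exon-union length, 3541 bases for Angptl4 and 6286 bases for Angptl2. In CPM, Angptl2 was the higher of them in every library.

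The angiopoietins themselves were scarce, with Angpt2 lower and Angpt1 higher with TGF-β1. Angpt2, the context-dependent antagonist (ENSMUSG00000031465, chromosome 8, 18690263 to 18741562, minus strand), had 44, 50 and 60 counts with TGF-β1, against 293 and 369 counts in controls, or 1.28 ± 0.241 CPM with TGF-β1 (SD, n = 3) and 8.50 ± 0.385 CPM in controls (SD, n = 2). It was lower in every TGF-β1 library, by 6.65-fold (log2 fold change −2.73, SE 0.179). Angpt1, the agonist (ENSMUSG00000022309, chromosome 15, 42424723 to 42676977, minus strand), had 48, 63 and 55 counts with TGF-β1, against 13 and 9 counts in controls, or 1.37 ± 0.159 CPM with TGF-β1 (SD, n = 3) and 0.290 ± 0.107 CPM in controls (SD, n = 2). It was higher in every TGF-β1 library (log2 fold change 2.25, SE 0.370), and the few control counts leave its size imprecise, with a log2 fold change of 1.90 without control 2 and 2.66 without control 1. Within a library, Angpt2 over Angpt1 per kilobase was 1.12 to 1.54 with TGF-β1 and 31.8 and 57.8 in controls. An antisense gene that overlaps the exons of Angpt1, Gm17473, had 0 counts in every library, as did Gm37802, which overlaps those of Angptl1.

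For Angptl6 and Angpt4 the groups overlapped. Angptl6, which in mice counteracts obesity (ENSMUSG00000038742, chromosome 9, 20873808 to 20879727, minus strand), had 80, 105 and 93 counts with TGF-β1 and 70 and 96 counts in controls, or 2.30 ± 0.271 CPM with TGF-β1 (SD, n = 3) and 2.12 ± 0.224 CPM in controls (SD, n = 2). The difference was within the spread of the libraries (log2 fold change 0.11, SE 0.208). The 3′ end of the gene shares 265 exon bases with A230050P20Rik on the opposite strand, a gene at 12.4 CPM with TGF-β1 and 20.03 CPM in controls, so the Angptl6 level is uncertain where counting ignored strand. Angpt4, a further ligand of the Tek receptor (ENSMUSG00000027460, chromosome 2, 151911210 to 151945337, plus strand), had 3.63, 4.62 and 3.05 CPM with TGF-β1 and 2.67 and 3.52 CPM in controls (log2 fold change 0.28, SE 0.220), again within the spread. Angptl8, a small family gene outside the 8 whose protein lacks the fibrinogen-like domain, had 0.696, 0.571 and 0.595 CPM with TGF-β1 and 0.449 and 0.785 CPM in controls (log2 fold change −0.00, SE 0.389; adjusted p = 0.996 by edgeR), and its log2 fold change was −0.34 without control 1 and 0.46 without control 2.

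The make-up of the family differed between the groups. Per kilobase of exon, Angptl7 made up 1.69% to 2.61% of the summed level of the 8 genes with TGF-β1, against 94.2% and 95.0% in controls. Angptl4 took 48.4% to 49.1% with TGF-β1 and 2.43% and 2.70% in controls, and Angptl2 took 41.1% to 42.7% with TGF-β1 and 1.54% and 1.70% in controls. The summed level was 50.1 ± 1.74 CPM per kb with TGF-β1 (SD, n = 3) and 432 ± 33.3 CPM per kb in controls (SD, n = 2). Without Angptl7 the order was the reverse, 49.1 ± 1.94 CPM per kb with TGF-β1 and 23.3 ± 0.558 CPM per kb in controls. In controls, the order per kilobase from high to low was Angptl7, Angptl4, Angptl2, Angpt2, Angptl6 and Angpt4, Angptl1 and Angpt1. There Angptl6 and Angpt4 lay within each other's spread. With TGF-β1 it was Angptl4, Angptl2, Angpt4 and Angptl6 (not separable), Angptl7, then Angpt2 and Angpt1, with Angptl1 at 0. Angptl7 was below Angptl6 in each TGF-β1 library, although their ranges met, and Angpt2 was above Angpt1 in each.

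**Figure D2:**
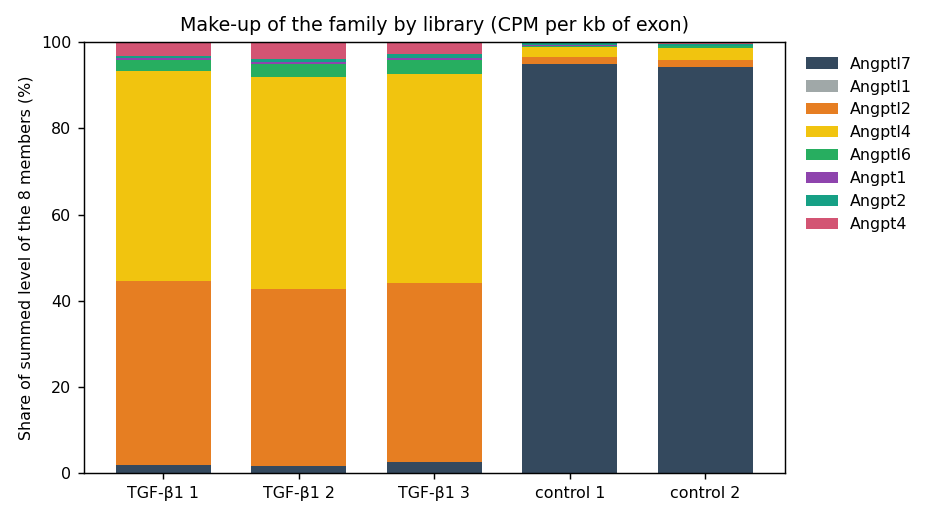
Share of each of the 8 genes in their summed level per kilobase of exon (percent), with a stacked bar per library, the 3 TGF-β1 libraries left and the 2 controls right. Angptl7 fills at least 94.2% of each control bar, and Angptl4 and Angptl2 fill most of each TGF-β1 bar.

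Position in the genome was not used in the choice of genes. Of the 8 genes, 4 lie inside another gene on the opposite strand, against 397 of the 13703 tested protein-coding genes (2.9%), and the other 4 do not. The 4 pairs are Angptl7 in Mtor, Angptl1 in Ralgps2, Angptl2 in Ralgps1 and Angpt2 in Mcph1. Angptl8 lies in Dock6 in the same way. In 4 of these 5 pairs the smaller gene sits within 1 intron of the larger one, the exception being Angpt2, and in none do exons overlap. Angptl7 spans 46.6 to 51.8 kb of the 109 kb of Mtor, the gene of a growth-controlling kinase.

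**Figure D3:**
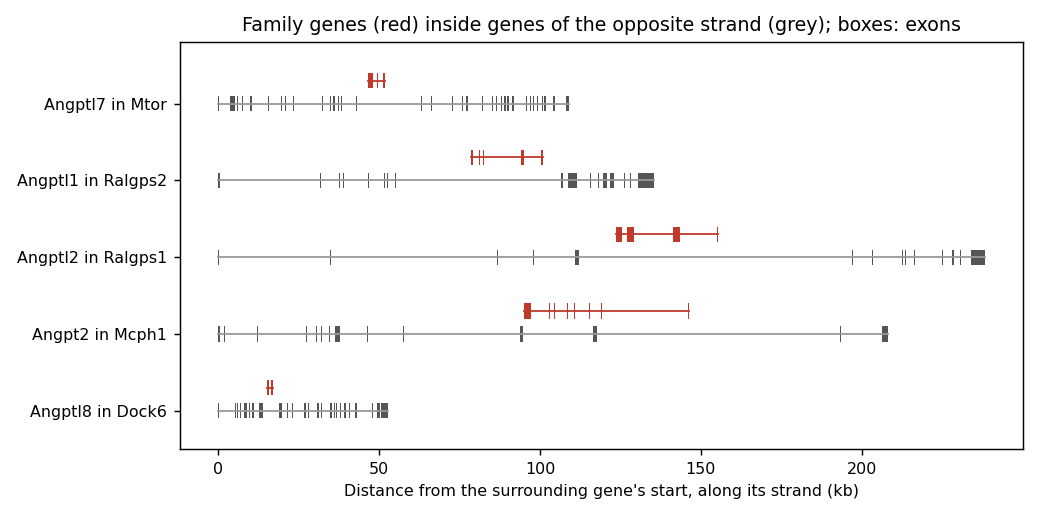
Position of 5 family genes (red, with exons as boxes) inside the genes that surround them (grey), as distance in kb from the start of the surrounding gene along its own strand. The shortest exons are drawn slightly widened, red and grey exons share no bases, and all but Angpt2 fall between neighbouring grey exons.

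The surrounding genes stayed within a log2 fold change of 0.58 in size. Mtor had 60.9, 60.5 and 60.1 CPM with TGF-β1, against 69.7 and 71.5 CPM in controls, and was slightly lower (log2 fold change −0.22, SE 0.0439, adjusted p = 0.00263 by edgeR). Ralgps1, a Ral guanine exchange factor around Angptl2, was at 6.51, 5.57 and 5.07 CPM with TGF-β1, against 8.37 and 8.73 CPM in controls. It fell (log2 fold change −0.58, SE 0.138, adjusted p = 0.00733 by edgeR) while Angptl2 was higher, and without control 2 its adjusted p was 0.0547. Ralgps2, around Angptl1, averaged 6.56 ± 0.299 CPM with TGF-β1 and 7.78 ± 0.360 CPM in controls (log2 fold change −0.25, adjusted p = 0.121 by edgeR, and 0.0391 with library totals). Mcph1, a DNA damage response gene around Angpt2, averaged 10.5 ± 0.141 CPM with TGF-β1 and 10.2 ± 0.397 CPM in controls (log2 fold change 0.04, SE 0.0967, adjusted p = 0.771 by edgeR). Dock6, around Angptl8, averaged 30.5 ± 1.24 CPM with TGF-β1 and 29.7 ± 1.35 CPM in controls (log2 fold change 0.04, adjusted p = 0.650 by edgeR). Of the 5 surrounding genes, 2 fell and 0 rose. None of the genes around Angptl7, Angptl1 and Angpt2 differed by an amount near that of the gene inside it.

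**Figure D4:**
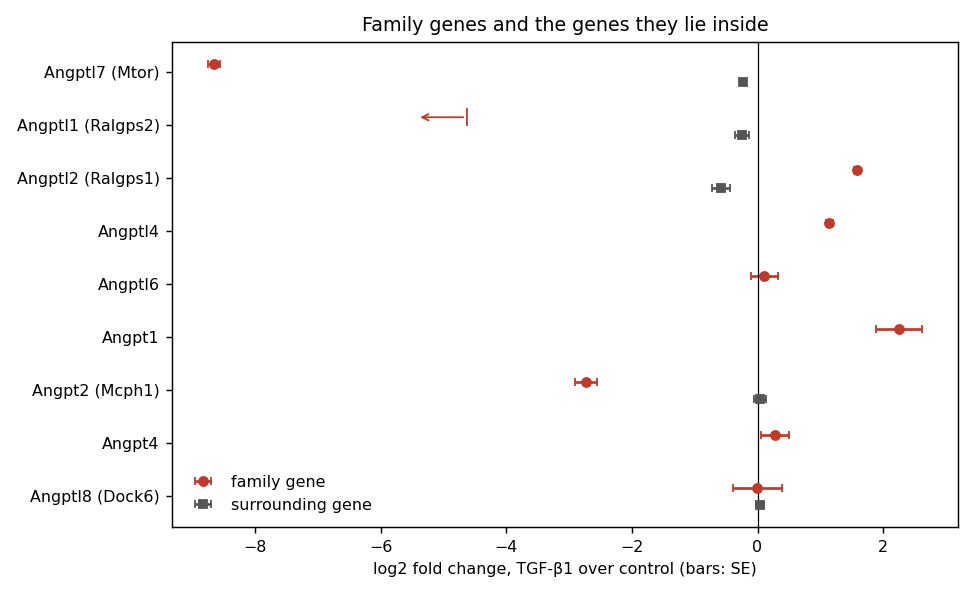
Fitted log2 fold change, TGF-β1 over control, with SE bars, for each family gene (red circles) and for the gene that surrounds it (grey squares, name in brackets). The arrow for Angptl1 starts at its bound of −4.63 and points to lower values, and the surrounding genes all lie within 0.58 of 0.

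The genes with the library profile most like that of Angptl7 were Smpd3, Dpysl5, Steap4, Igfbp5 and Cldn15. Likeness was the smallest Euclidean distance between log2 CPM profiles centred on each gene's mean over the 5 libraries, among 10927 other genes with a mean of at least 5 CPM. The distances were 2.92 for Smpd3, 3.29 for Dpysl5, 3.75 for Steap4, 3.88 for Igfbp5 and 4.04 for Cldn15, against a median of 9.49. Smpd3, a neutral sphingomyelinase, had 25, 63 and 58 counts with TGF-β1, against 2875 and 3357 counts in controls, and shares exon bases with Prmt7 on the opposite strand. Steap4, a metalloreductase, had 1.52, 1.57 and 1.58 CPM with TGF-β1, against 60.7 and 58.8 CPM in controls. Cldn15 is also among the mesothelial markers above. These genes had log2 fold changes of −4.98 to −6.05, short of the −8.65 of Angptl7. The measure picks genes for the same contrast, so it is a description.

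The receptors of the angiopoietins were at the edge of detection. Tek had 22, 10 and 13 counts with TGF-β1 and 9 and 11 counts in controls (log2 fold change 0.53, SE 0.531, adjusted p = 0.460 by edgeR). Tie1, the related receptor without a well-known angiopoietin ligand, had 7, 8 and 2 counts with TGF-β1 and 10 and 5 counts in controls, too few to test. Among 8 tested genes of the 9 listed for this receptor system, 2 rose, 3 fell and 3 missed the threshold, with a median log2 fold change of 0.04 against 0.00 over all genes tested. Svep1, a matrix protein known as a ligand of Tie1, fell to 21.8 ± 1.71 CPM with TGF-β1, against 115 ± 0.406 CPM in controls (log2 fold change −2.40, SE 0.0630, adjusted p = 4.95e-09 by edgeR). Itga5, the integrin chain that pairs with Itgb1 in the fibronectin receptor, rose to 3825 ± 9.39 CPM with TGF-β1, against 1188 ± 17.1 CPM in controls (log2 fold change 1.69, SE 0.0186). Grb14, an adaptor of receptor tyrosine kinases, fell to 3.82 ± 0.692 CPM with TGF-β1, against 9.32 ± 0.367 CPM in controls (log2 fold change −1.29, adjusted p = 0.000178 by edgeR).

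Receptors and binding partners reported for the angiopoietin-like proteins all passed the test, against 44.5% of all genes tested. The list was chosen with earlier results of these data known, so nothing is read from that count. Over the 9 gene lists together, 27 of 87 tested genes were higher and 30 lower. All 9 listed were tested, and 6 rose while 3 fell, with a median log2 fold change of 0.56. Itga5 and Itgb1 are in this list and are also the 2 that rose in the list for the angiopoietin receptors. Itgb3, an integrin β chain, rose to 135, 135 and 139 CPM with TGF-β1, against 27.4 and 24.3 CPM in controls (log2 fold change 2.40, SE 0.0592, adjusted p = 3.45e-09 by edgeR). Itga5, Itgb1, Itgav, Itgb5 and the cadherin gene Cdh11 were the others that rose. Sdc4, a heparan sulfate proteoglycan, fell to 171 ± 5.77 CPM with TGF-β1, against 438 ± 17.0 CPM in controls (log2 fold change −1.36). The immune receptors Pirb, a receptor of Angptl2 in mice, and Lilrb4a also fell, with log2 fold changes of −1.24 and −1.12. Both have close paralogs between which counting could split reads, Lilrb4a shares 1846 exon bases with Gm49339 on the same strand, and both are genes of leukocytes. Of the 8 leukocyte markers, 6 were lower and Ptprc was higher in the same libraries, at the summed levels given above. The part of leukocyte content in these values was not tested.

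Lipoprotein lipase, the enzyme that Angptl4 inhibits, fell while Angptl4 was higher. Lpl had 13.2, 11.0 and 12.7 CPM with TGF-β1, against 90.2 and 86.1 CPM in controls (log2 fold change −2.84, SE 0.0743, adjusted p = 4.87e-09 by edgeR). Per kilobase, Angptl4 over Lpl was 19.3 to 24.1 with TGF-β1 and 1.28 and 1.34 in controls. Among 12 tested genes of the 15 listed for the lipase axis, 6 rose, 2 fell and 4 missed the threshold, with a median log2 fold change of 0.25. With library totals, 5 were lower. Gpihbp1, the endothelial anchor of lipoprotein lipase, had 0, 2 and 0 counts with TGF-β1 and 0 in both controls. The proprotein convertases, some of which cleave Angptl4, split. Pcsk6 fell to 25.2 ± 0.216 CPM with TGF-β1, against 95.4 ± 2.39 CPM in controls (log2 fold change −1.92), whereas Pcsk5 rose to 20.4 ± 1.67 CPM, against 7.36 ± 0.482 CPM in controls (log2 fold change 1.47). Furin rose to 282 ± 9.01 CPM with TGF-β1, against 166 ± 0.775 CPM in controls (log2 fold change 0.76).

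Angptl4 is a known target of PPAR nuclear receptors, of hypoxia signalling and of glucocorticoids, and each of these gene lists held genes that rose and genes that fell. Among 17 tested PPAR targets of 20 listed, 2 rose, 9 fell and 6 missed the threshold, with a median log2 fold change of −0.24. Plin2, a lipid droplet coat protein, rose to 226 ± 8.64 CPM with TGF-β1, against 127 ± 0.936 CPM in controls (log2 fold change 0.83). Cd36, a fatty acid transporter, fell to 7.94 ± 0.700 CPM with TGF-β1, against 36.6 ± 2.91 CPM in controls (log2 fold change −2.21). Pdk4, a kinase that spares glucose, was lower as well (log2 fold change −0.96, adjusted p = 0.00430 by edgeR), and without control 1 its adjusted p was 0.0523. Of 4 listed PPAR and RXR receptor genes, 3 were tested and 1 passed: Rxra fell (log2 fold change −0.34, adjusted p = 0.00295 by edgeR). Their median was −0.34, and Ppara was too scarce to test.

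All 22 hypoxia targets were tested, and 6 rose, 7 fell and 9 missed the threshold, with a median log2 fold change of 0.02. Vegfa, the vessel growth factor, rose to 863, 861 and 815 CPM with TGF-β1, against 277 and 276 CPM in controls (log2 fold change 1.61, SE 0.0321, adjusted p = 1.04e-09 by edgeR). Adm, the vasodilator adrenomedullin, fell to 7.16 ± 0.996 CPM with TGF-β1, against 80.09 ± 1.85 CPM in controls (log2 fold change −3.48, SE 0.0906). Car12, a carbonic anhydrase, was lower too (log2 fold change −1.06). Without control 2, 4 of the list were lower. Among 12 tested glucocorticoid genes of 13 listed, 4 rose, 4 fell and 4 missed the threshold, with a median of −0.13. Those that rose were Fkbp5, Sgk1, Ddit4 and Klf9 (log2 fold changes 1.21, 0.79, 0.66 and 0.30). The metallothioneins Mt2 and Mt1, near-identical genes between which reads may be split, fell (log2 fold changes −1.92 and −1.38). The transcription factor gene Cebpd fell as well (log2 fold change −1.89). Its exons overlap Spidr on the opposite strand, so its level is uncertain where counting ignored strand.

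Other secreted proteins with a fibrinogen-like domain gave a mixed picture. Among 5 tested genes of 13 listed, 3 rose, 1 fell and 1 missed the threshold, with a median log2 fold change of 0.94. Tnc, the matrix protein tenascin C, rose to 3602 ± 108 CPM with TGF-β1, against 925 ± 3.62 CPM in controls (log2 fold change 1.96, SE 0.0269, adjusted p = 9.03e-11 by edgeR). Fgl2, a fibrinogen-like prothrombinase, rose to 8.15 ± 1.91 CPM with TGF-β1, against 3.32 ± 0.190 CPM in controls, 2.46-fold (adjusted p = 0.000868 by edgeR). Mfap4, a microfibril-associated protein, was the third that rose (log2 fold change 0.94). It shares 89 exon bases with the more abundant Mapk7 on the opposite strand, so its level is uncertain where counting ignored strand. Tnxb, tenascin X, fell to 1.05 ± 0.296 CPM with TGF-β1, against 5.29 ± 0.221 CPM in controls (log2 fold change −2.33), and without TGF-β1 replicate 3 the list had 2 genes lower. The fibrinogen chain genes Fga, Fgb and Fgg had 0 counts in all 5 libraries.

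**Figure D5:**
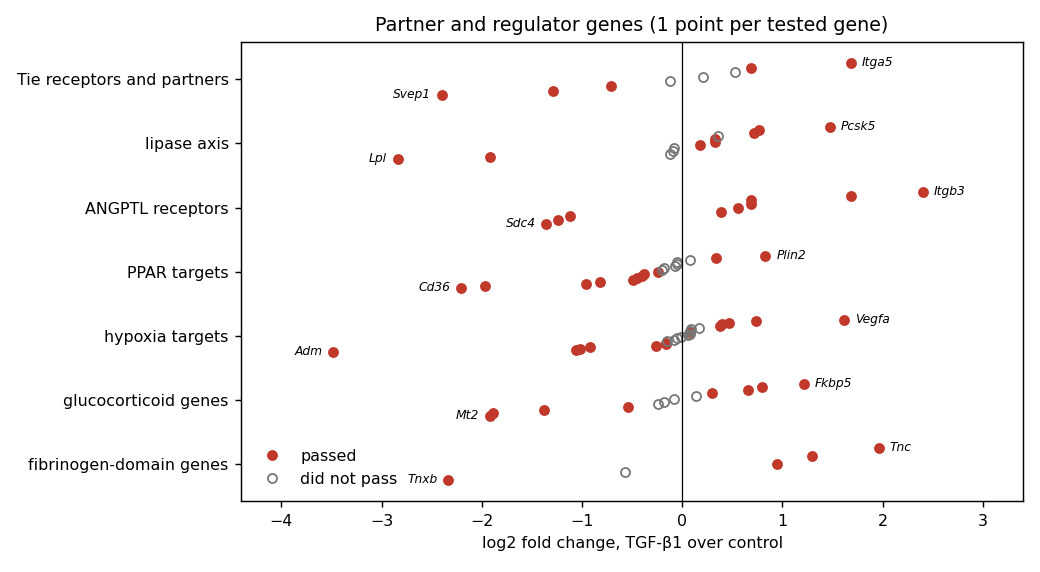
Log2 fold change, TGF-β1 over control, of each tested gene in 7 partner and regulator lists (rows), filled red where the adjusted p was under 0.05 and open grey otherwise, with the lowest and highest gene of each row named. Each row has genes on both sides of 0, from Adm at −3.48 to Itgb3 at 2.40.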

How the data were processed

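Gene counts, whole numbers for each Ensembl identifier, were deposited in a single table for 5 libraries, made from polyA RNA with a stranded kit, per the labels. No batch is named there. The submitters' processing notes name STAR 2.5.3a, StringTie 1.3.1c and mm10. The sources used here do not give the counting tool, its strand setting or its annotation. Symbols and exon-union lengths came from GENCODE M21 (GRCm38), which matched 55154 of 55335 identifiers. Where 2 identifiers shared a symbol, the one with the longer exon union was used.

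Genes were filtered with filterByExpr, scaled with TMM and tested with edgeR 4.0.16 (quasi-likelihood F test, group alone, two-sided, Benjamini-Hochberg over 16380 genes, threshold 0.05) in R 4.3.3, and DESeq2 1.42.0 was an alternative. The SE is the absolute log2 fold change over the square root of F. The code was tested on simulated data. The common biological coefficient of variation was 0.0765. Profiles used log2 CPM with a prior count of 2. An exact permutation test was not used, since 3 against 2 libraries could not pass. Tables were made with pandas 2.3.3 and numpy 2.4.6 under Python 3.11.15, and figures with matplotlib 3.10.9.

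The members and the 9 gene lists and 7 marker lists were chosen with earlier results of these data known. Named genes were the 8 members, Angptl8, Tek, Tie1 and Lpl, genes overlapping a member, up to 3 per list by size of change (adjusted p under 0.05, mean of at least 1 CPM), and the 5 most like Angptl7. Other names were chosen after their values were seen, and an item that the rule also covers is not reported here. Adipocyte markers, not used further, were 7 of 8 under 1 CPM.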

Additional observations from a re-analysis of the deposited data

How the results depend on the processing

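Scaling by library totals, upper quartiles or median ratios was tried. So were filtering on more than 1 CPM in at least 2 libraries and no filter. DESeq2, the replicate number as a block, and each library left out were further alternatives. No called family gene, and no called gene named by the rule above, changed direction over these. Fibroblast markers are outside that rule. With library totals, 3 of those 10 markers were higher and 6 lower, against 5 and 5 with TMM. Angptl7 ranged from −8.82 to −8.54 in log2 fold change, Angptl2 from 1.49 to 1.62, Angptl4 from 1.05 to 1.18 and Angpt2 from −2.89 to −2.63. The count of all genes higher was 2325 with library totals, against 3488. Same-numbered libraries did not deviate together (correlations of 0.0159 and 0.0161), and the labels do not say that numbers pair them. With the replicate number as a block, 3538 genes were higher and 3727 lower. Without a control, the spread comes from the TGF-β1 libraries, and the lone control is taken to vary as they do. The calls of Pdk4, Ralgps1 and Ralgps2 changed as given above, and 404 other values of named genes kept theirs. Low counts limit the precision for Angptl1, Angpt1, Angptl8, Tek and Tie1.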
